A study of Caenorhabditis elegans with 12 samples.

Results

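The genotype by diet interaction asks whether dietary restriction changes a transcript differently in worms that lack the kinase SEK-1 than in wild type worms. For each gene it is the log2 change on restricted food in the mutant minus the log2 change on restricted food in wild type. It uses all 12 of the 12 libraries of the series, and it was computed a second time on 11 libraries, without N2 AL replicate 3. A positive value means that restriction raised the transcript more, or lowered it less, in the mutant.

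The libraries hold poly(A)-selected RNA of whole Caenorhabditis elegans adults, with 3 libraries in each of 4 groups. These are sek-1(km4) worms on dietary restriction (DR), sek-1(km4) worms fed ad libitum (AL), N2 worms on DR and N2 worms on AL, where N2 is the standard wild type strain and km4 is a deletion allele of sek-1. Per the labels, food was the bacterium OP50, arrested by cold and antibiotics, at an optical density of 0.1 for DR and 3 for AL in wells of 1 ml with 10 to 20 worms. All groups spent 3 days on their diet, between adult day 3 and adult day 6. All 4 groups had also been kept on plates with ampicillin, kanamycin, tetracycline, nystatin and 100 mg/L of FUdR, which blocks the production of progeny, so no group is free of these agents. The mutant is a single allele carried in every cell of the animal from the start of life. The labels do not say how many worms a library held or whether libraries of different groups were raised together.

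SEK-1 is a MAP kinase kinase. It is activated by NSY-1, which the adaptor TIR-1 switches on, and it activates the p38 kinase PMK-1, which drives immune effector genes in the intestine through the transcription factor ATF-7. The same kinases act in neurons and in the response to oxidative stress, and bacteria are both the food and a source of infection for this animal. Dietary restriction in liquid culture is a standard way to lengthen worm lifespan.

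Libraries held 13673987 to 31675540 counts, of which ribosomal RNA took 32.63% to 50.95%. The poly(A) selection thus left much ribosomal RNA in every library. One library stood apart from the rest before any contrast was made. N2 AL replicate 3 had the fewest counts outside ribosomal RNA (7187373, against up to 19688057), a correlation with its own group as low as 0.904 where the other groups stayed at 0.98 or above, and 1.178% of its counts outside ribosomal RNA in mitochondrial mRNA, against 0.2805% to 0.6527% in the other 11 libraries. The mean variance within a group, on log2 CPM (counts scaled to library size), was 0.114 in sek-1(km4) DR, 0.113 in sek-1(km4) AL, 0.148 in N2 DR and 0.72 in N2 AL, and it was 0.101 in N2 AL without that library. Interactions below are therefore given without N2 AL replicate 3, which leaves N2 AL with 2 libraries, and the main ones also with it.

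The targeted gene was read in every library first. Counts over sek-1 (WBGene00004758, chromosome X, 7816734 to 7821036, plus strand; all positions are on WBcel235) were 22.4, 21.2 and 20.8 CPM in sek-1(km4) DR, 18.8, 16.4 and 17.4 CPM in sek-1(km4) AL, 28.6, 24.0 and 23.4 CPM in N2 DR, and 22.8, 20.8 and 3.72 CPM in N2 AL. The mutant libraries thus kept reads over the gene, and the lowest value of all was in N2 AL replicate 3. A count over the whole gene cannot show a partial deletion, and R03G5.6 overlaps it on the other strand, so these counts check neither the allele nor the labels. The interaction of sek-1 itself was 0.02 ± 0.18 (log2 ± SE) without that library and -0.38 ± 0.63 with it, and neither passed.

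Whether any gene passed depended on that 1 library. Without it, edgeR called 13 of 14847 tested genes (0.0876%) at a Benjamini-Hochberg adjusted p under 0.05. Of these 9 (0.0606% of tested genes) had a positive and 4 (0.0269%) a negative interaction. With all 12 libraries edgeR called 0 of 14611 genes (0%), while 1302 (8.91%) had an unadjusted p under 0.05, against 2390 (16.1%) without that library. On the same 12 libraries DESeq2 called 50 genes (0.342%; 28 positive, 0.192%, and 22 negative, 0.151%), and limma voom with sample quality weights called 1374 (9.40%). Voom gave N2 AL replicate 3 a weight of 0.0532. Replicate 2 had the highest weight of each group, with 4.06 in sek-1(km4) DR, 2.87 in sek-1(km4) AL, 3.46 in N2 DR and 1.69 in N2 AL. The remaining libraries had 0.36 to 1.42, so voom on 12 libraries leaned most on replicate 2. All 13 genes had the same sign with 12 libraries, at adjusted p of 0.19 to 0.579. Those libraries include the ones that chose the genes, so the shared sign is no separate support.

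The 13 genes fall into 3 kinds. In 2 genes DR acted in opposite ways in the 2 genotypes, with both diet contrasts passing. In 4 genes only the mutant's response to DR passed, and in 7 only that of N2. No gene passed in both genotypes in the same direction with a called difference in size. Counting signs alone, whether or not they passed, 9 of the 13 had diet changes of opposite sign, beside 42.2% of all tested genes. Choosing genes by a large interaction favours opposite signs. Some of these changes were small beside their SE, such as lst-5 in N2 (0.01 ± 0.36) and K11H12.4 in sek-1(km4) (0.19 ± 0.44). The background for the diet contrasts in the same fit is that DR called 2239 genes (15.1%) in sek-1(km4) and 406 (2.73%) in N2. With all 12 libraries DR called 66 (25 up, 0.171%, and 41 down, 0.281%; 0.452% in all) in sek-1(km4) and 159 (53 up, 0.363%, and 106 down, 0.725%; 1.09% in all) in N2.

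**Figure D1:**
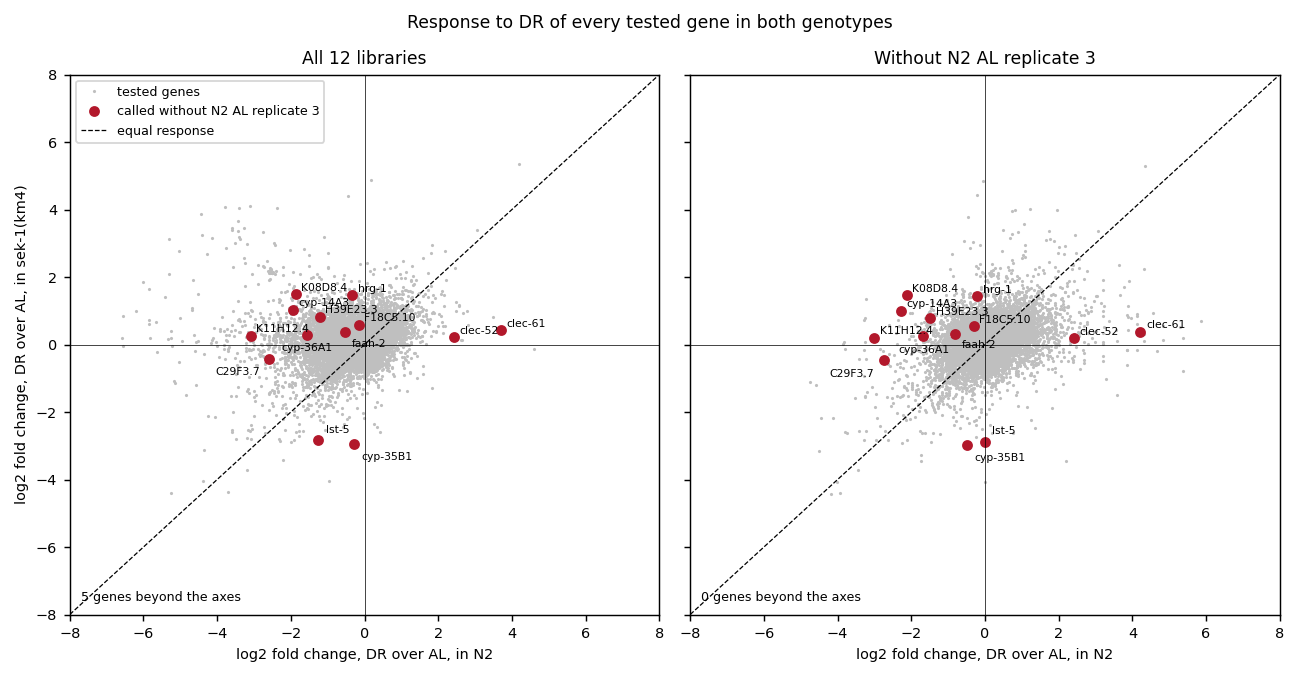
Each point is a tested gene, with its log2 fold change on DR over AL in N2 on the horizontal axis and in sek-1(km4) on the vertical axis, for all 12 libraries (left) and without N2 AL replicate 3 (right). The dashed line marks an equal response, the 13 called genes are in red, and 5 genes with all libraries and 0 without that library lie beyond 8 on either axis.

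The first gene with opposite responses was K08D8.4 (WBGene00010658, chromosome IV, 12907469 to 12909998, minus strand), which is in the list of immune effectors that need p38. It had 0.613, 0.682 and 0.593 CPM in sek-1(km4) DR, 0.141, 0.231 and 0.301 CPM in sek-1(km4) AL, 2.38, 2.37 and 1.79 CPM in N2 DR, and 7.59, 11.8 and 4.27 CPM in N2 AL. DR libraries were above all AL libraries in the mutant and below all of them in N2. The log2 change on DR was 1.46 ± 0.38 (SE) in the mutant and -2.13 ± 0.24 in N2, and the interaction was 3.59 ± 0.44 (edgeR adjusted p = 0.0105; 3.36 ± 0.55 and adjusted p = 0.19 with all libraries). The mutant's AL libraries rest on 4, 6 and 7 counts.

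H39E23.3 (WBGene00044201, chromosome V, 14107811 to 14110051, plus strand, 1 exon) was the other gene with opposite responses. Its levels were 1.51, 2.51 and 2.59 CPM in sek-1(km4) DR, 1.27, 1.11 and 1.33 CPM in sek-1(km4) AL, 7.58, 9.86 and 7.57 CPM in N2 DR, and 21.5, 25.9 and 10.1 CPM in N2 AL. Again no DR library overlapped an AL library of its genotype. The change on DR was 0.77 ± 0.23 in the mutant and -1.49 ± 0.20 in N2, which gave an interaction of 2.26 ± 0.31 (edgeR adjusted p = 0.0176; 2.03 ± 0.47 and adjusted p = 0.515 with all libraries). In both of these genes DR brought the 2 genotypes closer together, since the mutant was far below N2 on either diet.

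One more gene was called in opposite directions by diet, F53B2.8 (WBGene00009957, chromosome IV, 12526231 to 12527396, minus strand), but its interaction did not pass; it is named here after its values were seen. DR changed it by 0.63 ± 0.16 in sek-1(km4) and -0.72 ± 0.18 in N2, and the interaction was 1.35 ± 0.24 (edgeR adjusted p = 0.0586 without N2 AL replicate 3). That replicate held 1949 CPM of this gene, against 21.7 and 21.7 CPM in the other N2 AL libraries and 11.2 to 37.7 CPM in the 9 libraries of the other groups. With it included the interaction was 6.34 ± 1.84 (adjusted p = 0.531).

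Among the genes whose response to DR passed in the mutant alone was the heme transporter gene hrg-1 (WBGene00019830, chromosome X, 4008057 to 4016221, minus strand). HRG-1 moves heme out of lysosome-related vesicles in the intestine, and worms, which cannot make heme, take it from their bacterial food. It stood at 10.6, 9.98 and 10.4 CPM in sek-1(km4) DR, 3.67, 3.15 and 4.42 CPM in sek-1(km4) AL, 2.07, 2.37 and 2.07 CPM in N2 DR, and 2.89, 2.12 and 3.25 CPM in N2 AL. The mutant on DR was above every other library, and the N2 groups overlapped. DR gave a log2 change of 1.43 ± 0.18 in the mutant and -0.20 ± 0.22 in N2, with an interaction of 1.63 ± 0.28 (edgeR adjusted p = 0.0432; 1.80 ± 0.29 and adjusted p = 0.19 with all libraries).

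F18C5.10 (WBGene00017563, chromosome II, 6559722 to 6561444, minus strand) was the most abundant of the 13 and had the smallest difference. It had 75.3, 72.4 and 71.7 CPM in sek-1(km4) DR, 49.3, 44.2 and 52.8 CPM in sek-1(km4) AL, 34.7, 34.3 and 34.1 CPM in N2 DR, and 45.4, 40.1 and 28.7 CPM in N2 AL. Its DR libraries exceeded the AL libraries in the mutant, while in N2 the groups overlapped through replicate 3 of AL. The interaction was 0.84 ± 0.14 (edgeR adjusted p = 0.0414), from 0.54 ± 0.10 in the mutant and -0.30 ± 0.11 in N2; with all libraries it was 0.74 ± 0.24 (adjusted p = 0.531).

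The cytochrome P450 gene cyp-35B1 (WBGene00019472, chromosome V, 3939032 to 3941237, plus strand), of an enzyme family that oxidises lipids and foreign compounds, fell in the mutant. Its levels were 0.865, 0.431 and 0.216 CPM in sek-1(km4) DR, 3.92, 4.0 and 4.25 CPM in sek-1(km4) AL, 4.45, 5.81 and 4.10 CPM in N2 DR, and 6.06, 7.66 and 3.72 CPM in N2 AL. The 3 mutant DR libraries lay below all 9 others. The change on DR was -2.96 ± 0.32 in the mutant and -0.49 ± 0.28 in N2, and the interaction was -2.47 ± 0.43 (edgeR adjusted p = 0.0432; -2.66 ± 0.52 and adjusted p = 0.458 with all libraries). K07C6.16 overlaps an exon of cyp-35B1 on the other strand, and no source states whether counting used strand.

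The fourth gene of this kind was lst-5 (WBGene00016890, chromosome II, 7022913 to 7024940, plus strand), named for its identification as a target of lateral signalling by LIN-12/Notch and named here, outside the rule on mean level, because all 13 are given. It had 0.973, 0.862 and 1.29 CPM in sek-1(km4) DR, 5.54, 6.38 and 10.2 CPM in sek-1(km4) AL, 0.925, 0.726 and 0.717 CPM in N2 DR, and 0.870, 0.686 and 4.55 CPM in N2 AL. The mutant on AL was above every other library, and N2 AL replicate 3 came next. The interaction therefore rests on leaving that library out: it was -2.88 ± 0.45 (edgeR adjusted p = 0.0301) without it and -1.58 ± 0.83 (adjusted p = 0.579) with it. In the mutant the change on DR was -2.87 ± 0.26, and in N2 it was 0.01 ± 0.36.

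Of the 7 genes that responded in N2 alone, both C-type lectin genes rose on DR. C-type lectins are secreted or membrane proteins with a carbohydrate-binding fold, and many in this animal are induced by bacteria. The gene clec-52 (WBGene00015052, chromosome IV, 8167164 to 8168760, minus strand) had 12.04, 7.72 and 6.31 CPM in sek-1(km4) DR, 8.36, 7.27 and 6.83 CPM in sek-1(km4) AL, 26.5, 31.9 and 21.1 CPM in N2 DR, and 5.05, 5.09 and 4.55 CPM in N2 AL. N2 on DR was above every other library and the mutant's diets overlapped. DR gave a log2 change of 0.18 ± 0.22 in the mutant and 2.40 ± 0.27 in N2, so that the interaction was -2.22 ± 0.34 (edgeR adjusted p = 0.0301; -2.21 ± 0.35 and adjusted p = 0.19 with all libraries).

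The lectin gene clec-61 (WBGene00014047, chromosome II, 10488730 to 10490537, minus strand) had the same pattern at a lower level. It had 0.505, 0.359 and 0.378 CPM in sek-1(km4) DR, 0.282, 0.385 and 0.258 CPM in sek-1(km4) AL, 2.91, 6.38 and 3.94 CPM in N2 DR, and 0.278, 0.172 and 0.650 CPM in N2 AL. The 3 libraries of N2 on DR were above the other 9. The change on DR was 0.38 ± 0.44 in the mutant and 4.22 ± 0.44 in N2, with an interaction of -3.84 ± 0.65 (edgeR adjusted p = 0.0414; -3.29 ± 0.65 and adjusted p = 0.458 with all libraries). N2 AL replicates 1 to 3 rest on 8, 3 and 7 counts. Of the neighbouring lectin gene clec-60 (chromosome II, 10480043 to 10481874), chosen after its values were seen, the mutant held 60.0, 40.4 and 16.3 CPM on DR and 26.6, 18.2 and 21.6 CPM on AL, and N2 held 11.9, 14.7 and 10.2 CPM on DR and 0.661, 0.972 and 1.86 CPM on AL. Its interaction was -3.18 ± 0.75 and did not pass (edgeR adjusted p = 0.166), and it shares exon sequence on the same strand with another annotated gene.

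The other 5 genes of this kind fell on DR in N2. The P450 gene cyp-36A1 (WBGene00007913, chromosome I, 8341682 to 8346023, minus strand) acts downstream of the hypoxia factor HIF-1 in stress resistance and behaviour. It was measured at 8.43, 7.25 and 8.41 CPM in sek-1(km4) DR, 6.70, 6.35 and 6.74 CPM in sek-1(km4) AL, 1.63, 1.22 and 1.04 CPM in N2 DR, and 4.56, 3.72 and 3.07 CPM in N2 AL. The mutant libraries were all above the N2 libraries, and within each genotype the diets did not overlap. In the mutant the change on DR was 0.24 ± 0.17, and in N2 it was -1.67 ± 0.22, and the interaction was 1.91 ± 0.28 (edgeR adjusted p = 0.0301; 1.84 ± 0.30 and adjusted p = 0.19 with all libraries). The gene figo-1 overlaps one of its exons on the other strand.

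A further P450 gene, cyp-14A3 (WBGene00010707, chromosome X, 13271837 to 13274202, minus strand), was near the limit of detection. It had 0.649, 0.969 and 0.971 CPM in sek-1(km4) DR, 0.317, 0.346 and 0.601 CPM in sek-1(km4) AL, 0.264, 0.306 and 0.159 CPM in N2 DR, and 1.04, 1.43 and 0.279 CPM in N2 AL. The mutant's DR libraries were above its AL libraries, and in N2 all DR libraries were below AL replicates 1 and 2, while AL replicate 3, which rests on 3 counts, lay between DR replicates 1 and 2. DR gave a log2 change of 0.99 ± 0.37 in the mutant, which missed the threshold (edgeR adjusted p = 0.0771), and -2.29 ± 0.42 in N2. The interaction was 3.28 ± 0.56 (edgeR adjusted p = 0.0414; 2.98 ± 0.73 and adjusted p = 0.531 with all libraries), and K09A11.8 and K09A11.9 overlap its exons on the other strand.

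The gene faah-2 (WBGene00015048, chromosome IV, 8152445 to 8154857, plus strand) encodes a homologue of fatty acid amide hydrolase, the enzyme that breaks down endocannabinoid-like lipids. Its levels were 12.2, 14.3 and 13.2 CPM in sek-1(km4) DR, 9.63, 10.3 and 10.99 CPM in sek-1(km4) AL, 22.0, 20.6 and 17.1 CPM in N2 DR, and 34.5, 36.8 and 15.2 CPM in N2 AL. In the mutant the diets did not overlap, and in N2 they overlapped only through AL replicate 3. The change on DR was 0.32 ± 0.13 in the mutant (edgeR adjusted p = 0.112) and -0.82 ± 0.14 in N2, and the interaction was 1.14 ± 0.19 (edgeR adjusted p = 0.0414; 0.90 ± 0.39 and adjusted p = 0.554 with all libraries).

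The last 2 genes, C29F3.7 and K11H12.4, also lie outside the rule on mean level. C29F3.7 (WBGene00007807, chromosome V, 15354901 to 15357571, plus strand) had 1.80, 1.40 and 1.94 CPM in sek-1(km4) DR, 2.05, 2.31 and 2.53 CPM in sek-1(km4) AL, 1.19, 2.64 and 1.59 CPM in N2 DR, and 10.6, 14.3 and 7.80 CPM in N2 AL. The N2 AL libraries were above all 9 others. In the mutant the change on DR was -0.47 ± 0.27, and in N2 it was -2.75 ± 0.27, and the interaction was 2.28 ± 0.39 (edgeR adjusted p = 0.0414; 2.16 ± 0.44 and adjusted p = 0.458 with all libraries).

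K11H12.4 (WBGene00019660, chromosome IV, 674035 to 675883, minus strand) had 0.288, 0.467 and 0.432 CPM in sek-1(km4) DR, 0.494, 0.346 and 0.129 CPM in sek-1(km4) AL, 0.837, 1.26 and 0.717 CPM in N2 DR, and 7.34, 8.003 and 8.83 CPM in N2 AL. Here N2 AL replicate 3 lay beside the other N2 AL libraries, and all 3 were above the 9 libraries of the other groups. DR gave a log2 change of 0.19 ± 0.44 in the mutant and -3.0 ± 0.31 in N2, and the interaction was 3.19 ± 0.55 (edgeR adjusted p = 0.0414; 3.34 ± 0.54 and adjusted p = 0.19 with all libraries). The mutant's AL libraries rest on 14, 9 and 3 counts.

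**Figure D2:**
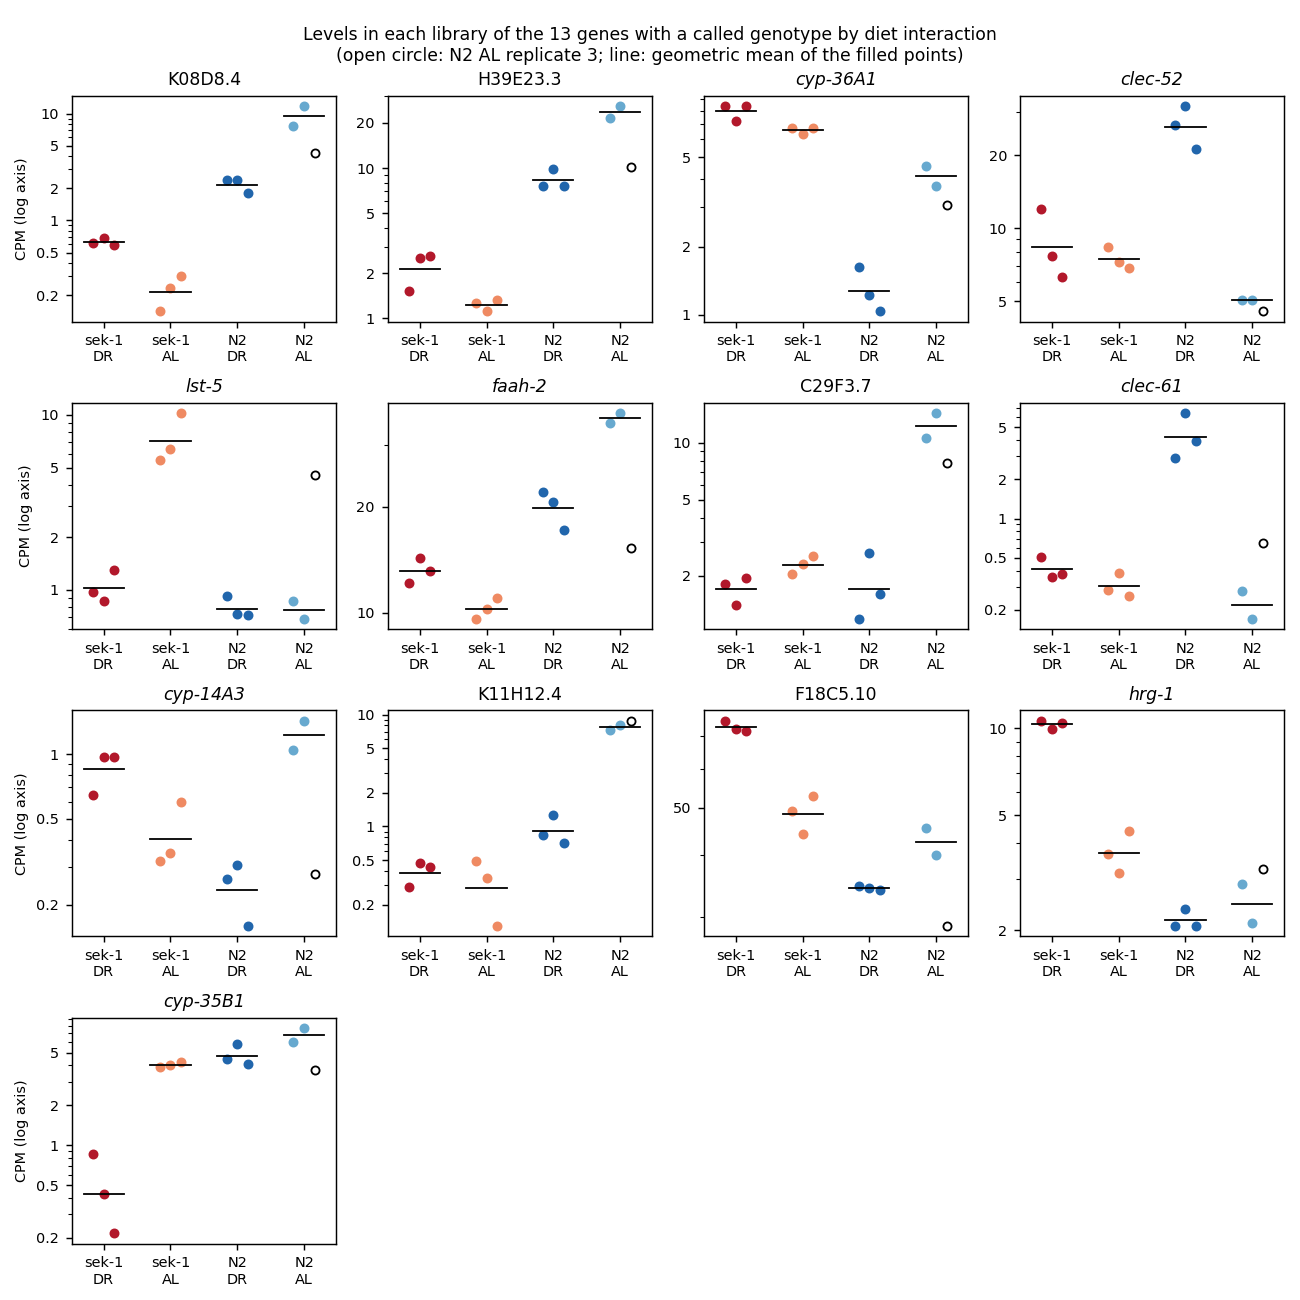
Levels in CPM (log axis) of the 13 called genes in each of the 12 libraries, with sek-1(km4) on DR and AL to the left of N2 on DR and AL. Open circles are N2 AL replicate 3 and lines are geometric means of the filled points; the open circle lies among the N2 DR libraries or below them in faah-2, F18C5.10, cyp-14A3 and cyp-35B1, and far above the other N2 AL libraries in lst-5.

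The 13 calls were sensitive to single libraries beyond N2 AL replicate 3. Starting from the 11 libraries, edgeR called 0 genes without sek-1(km4) AL replicate 1, sek-1(km4) AL replicate 2 or sek-1(km4) DR replicate 2. It called 1 and 2 without N2 AL replicate 1 and N2 AL replicate 2, which leaves N2 AL with 1 library that is assumed to vary like the other groups. It called 4 without N2 DR replicate 2 (3 of the 13), 7 without sek-1(km4) DR replicate 3 (5 of the 13) and 10 without N2 DR replicate 3 (6 of the 13). Without N2 DR replicate 1 it called 19 (8 of the 13). The count was 22 without sek-1(km4) AL replicate 3 (11 of the 13) and 44 without sek-1(km4) DR replicate 1 (all 13). In all 143 values from these 11 fits each of the 13 genes kept its sign. This is little support, since the genes were chosen for large interactions in the same libraries. Other tests on the same 11 libraries called more genes: DESeq2 called 184 (1.24%; 81 positive, 0.546%, and 103 negative, 0.694%) and limma voom with sample quality weights called 2607 (17.6%), and voom called all 13. With a block for replicate number edgeR called 551 of 14847 genes (129 positive and 422 negative), all 13 among them. The count thus also depended on whether libraries were paired by number.

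**Figure D3:**
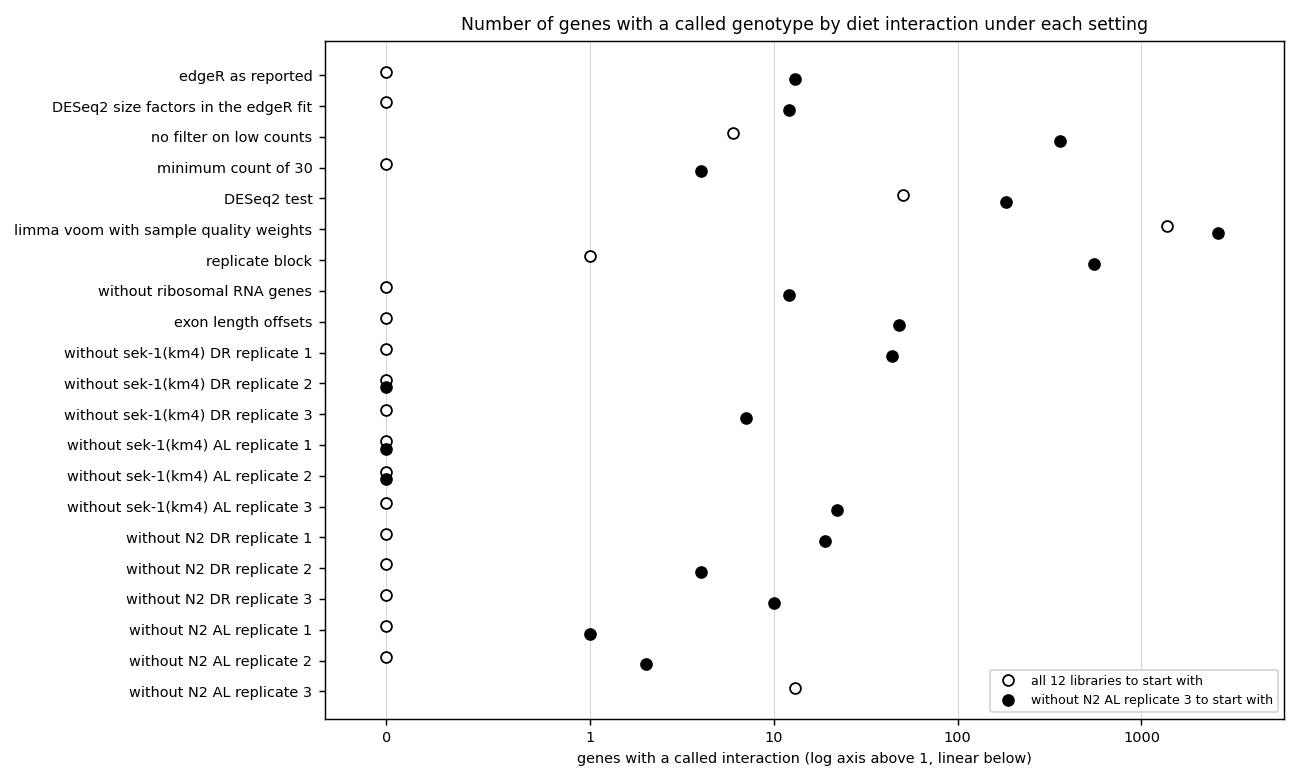
Number of genes with a called interaction (adjusted p under 0.05) under each setting, on an axis that is logarithmic above 1 and linear below. Open circles start from all 12 libraries and filled circles from 11; with edgeR the count was 0 from 12 libraries and 13 from 11, and with limma voom 1374 and 2607.

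The direction of the interaction over all genes also turned with that library. Without it, 629 genes (4.24%) had a positive and 1761 (11.9%) a negative interaction at an unadjusted edgeR p under 0.05, and the median over all genes was -0.095. With all libraries, 845 (5.78%) were positive and 457 (3.13%) negative, and the median was 0.077. Limma voom with sample quality weights gave more negative than positive calls in both sets, with 539 positive (3.63%) and 2068 negative (13.9%) on 11 libraries and 479 (3.28%) and 895 (6.13%) on 12. Most of the 2607 voom calls on 11 libraries, 2198, were genes whose response to DR passed in sek-1(km4) alone, and 1878 of those had a negative interaction. Voom itself called a response to DR in 46.8% of genes in sek-1(km4) and 7.48% in N2. A further 194 responded in N2 alone, 39 in opposite ways, 54 in the same direction to different degrees and 122 in neither genotype alone.

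The diet responses of the 2 genotypes, which share no library, can be set side by side through the genes each one called. The 727 genes that rose on DR in the mutant (4.90% of those tested, 11 libraries) had a median log2 change of 0.75 there and 0.41 in N2, and 85.6% had the same sign in N2. The 1512 genes that fell in the mutant (10.2%) had a median of -0.55 there and -0.04 in N2, and 60% had the same sign in N2. Of all tested genes 42.2% had opposite signs in the 2 genotypes, so this 60% lay near the share over all genes. In the other direction, the 182 genes that rose in N2 (1.23%) had a median of 1.15 there and 0.60 in the mutant with 94% of the same sign, and the 224 that fell in N2 (1.51%) had -1.32 there and -0.73 in the mutant with 84.4% of the same sign. Medians in the contrast that chose the genes are enlarged by the choice. Both genotypes called 97 genes as rising and 112 as falling, and 3 were called in opposite directions. Across all tested genes, which are not independent replicates, Pearson's r between the responses was 0.382 on 11 libraries and 0.118 on 12.

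Some of the strong responses to DR were common to both genotypes, and for these the interaction did not pass. The gene cpr-2 (WBGene00000782, chromosome V, 16532936 to 16534100, minus strand), for a cysteine protease of the cathepsin B type, changed by 5.30 ± 0.42 in sek-1(km4) and 4.35 ± 0.45 in N2 on the log2 scale (interaction 0.95 ± 0.56, edgeR adjusted p = 0.435), and the mutant held 60.9, 81.3 and 116 CPM on DR and 1.94, 1.54 and 2.92 CPM on AL. The aquaglyceroporin gene aqp-1 (WBGene00000169, chromosome II, 7235828 to 7238349, minus strand) changed by 1.87 ± 0.15 in sek-1(km4) and 2.43 ± 0.18 in N2 (interaction -0.56 ± 0.22, edgeR adjusted p = 0.25), and ctsa-3.1 overlaps it on the other strand. A p that misses the threshold does not show that the responses were equal.

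Many genes of the germ line and the oocyte fell on DR in the mutant, and none passed in N2. The list has 32 genes known to act in germ cells or oocytes, and all 32 were tested. Without N2 AL replicate 3, 23 of the 32 fell on DR in sek-1(km4) (10.2% of all tested genes did) and 0 fell in N2 (1.51% did), and the median change was -0.55 in the mutant and -0.03 in N2. The median interaction was -0.52 without that library and -0.66 with it, beside -0.095 and 0.077 over all genes. No member's interaction passed in edgeR, while 17 had an unadjusted p under 0.05, all of them negative (11.9% of all genes), and limma voom with sample quality weights called 30 negative (13.9% of all genes) and 0 positive. With all 12 libraries, 0 of the 32 members passed on DR in either genotype, 9 had an unadjusted interaction p under 0.05, all negative (3.13% of all genes), and voom called 20 negative (6.13%).

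Summed over the list, the level was 7804, 6512 and 5962 CPM in sek-1(km4) DR, 10780, 10140 and 7682 CPM in sek-1(km4) AL, 13380, 13520 and 13220 CPM in N2 DR, and 13820, 13300 and 7565 CPM in N2 AL. Replicates 1 and 2 of N2 AL lay beside N2 DR, and replicate 3 lay at the level of the mutant. In the mutant the diets overlapped on this sum, since DR replicate 1 was above AL replicate 3, while within each replicate number DR was below AL. RNA of whole animals cannot tell apart fewer cells of a type and less RNA per cell. The part of FUdR, which all groups received, and of the lower level of this RNA in the mutant was not tested.

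Among its members, puf-3 (WBGene00004239, chromosome IV, 13510307 to 13512162, minus strand), an RNA-binding protein of oocytes, had 204, 170.2 and 155 CPM in sek-1(km4) DR, 310.5, 292 and 234 CPM in sek-1(km4) AL, 438, 422 and 456 CPM in N2 DR, and 398, 392 and 208 CPM in N2 AL. Each mutant DR library was below each mutant AL library, and in N2 the order was the other way round. The change on DR was -0.70 ± 0.14 in the mutant and 0.17 ± 0.15 in N2, and the interaction was -0.87 ± 0.21 (edgeR adjusted p = 0.14; limma voom adjusted p = 0.000466). The gene him-3 (WBGene00001862, chromosome IV, 6977508 to 6978765, plus strand), for a protein of the meiotic chromosome axis, had 45.2, 42.8 and 42.3 CPM in sek-1(km4) DR, 64.3, 67.6 and 62.2 CPM in sek-1(km4) AL, 84.1, 85.9 and 112 CPM in N2 DR, and 85.2, 97.3 and 87.3 CPM in N2 AL. For him-3 the interaction was -0.68 ± 0.18 without N2 AL replicate 3 and -0.64 ± 0.21 with it (edgeR adjusted p = 0.158 and 0.531), and prkl-1 overlaps it on the other strand.

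Genes of the eggshell, the chitin and proteoglycan coat laid down around the egg at fertilisation, fell on DR in the mutant as well. Of 15 members, 11 fell on DR in sek-1(km4), beside 10.2% of all genes, and 0 in N2, beside 1.51%, with medians of -0.65 in the mutant and -0.03 in N2 (11 libraries). The median interaction was -0.63, and -0.82 with all libraries. None passed in edgeR, 12 had an unadjusted p under 0.05, all negative (11.9% of all genes), and voom called 12 negative (13.9%) and 0 positive. With all libraries 0 of the 15 fell on DR in the mutant (0.281% of all genes did), 5 had an unadjusted interaction p under 0.05, all negative (3.13%), and voom called 12 negative (6.13%).

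The eggshell gene gna-2 (WBGene00001647, chromosome I, 7699682 to 7700958, plus strand) makes a sugar precursor of chitin. It had 62.0, 54.7 and 52.9 CPM in sek-1(km4) DR, 81.1, 85.4 and 75.1 CPM in sek-1(km4) AL, 103, 103 and 129.8 CPM in N2 DR, and 108.5, 114 and 105.5 CPM in N2 AL, with an interaction of -0.58 ± 0.17 (edgeR adjusted p = 0.191). Only the mutant's diets were apart, and N2 AL replicate 3 lay with its group. For the proteoglycan gene cpg-3 (WBGene00011063, chromosome I, 7244937 to 7246295, plus strand) the mutant had 330.1, 277 and 236 CPM on DR and 562, 481 and 386 CPM on AL, while N2 had 705, 727 and 740.1 CPM on DR and 786, 716 and 1268 CPM on AL. The exons of cpg-3 overlap those of R06C7.6 on the other strand. Its interaction was -0.77 ± 0.24 without N2 AL replicate 3, the library with 1268 CPM, and -0.41 ± 0.35 with it (edgeR adjusted p = 0.193 and 0.697).

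Some subunits of the proteasome, the complex that degrades proteins tagged with ubiquitin, also fell on DR in the mutant. All 33 were tested, and 10 fell in sek-1(km4), beside 10.2% of all genes, and 0 in N2, beside 1.51%, with a median change of -0.24 in the mutant and 0.06 in N2. The median interaction was -0.34, and -0.23 with all libraries. None passed in edgeR, 17 had an unadjusted p under 0.05, all negative (11.9% of all genes), and voom called 23 negative (13.9%). With all libraries 0 of the 33 fell on DR in the mutant (0.281% of all genes did), 1 had an unadjusted interaction p under 0.05, which was negative (3.13%), and voom called 8 negative (6.13%). The alpha subunit gene pas-4 (WBGene00003925, chromosome I, 8727218 to 8728487, minus strand) had 83.0, 80.8 and 90.5 CPM in sek-1(km4) DR, 123, 110.3 and 109 CPM in sek-1(km4) AL, 123, 140.5 and 168 CPM in N2 DR, and 135, 138 and 233 CPM in N2 AL. Its interaction was -0.57 ± 0.17 (edgeR adjusted p = 0.193), and -0.20 ± 0.31 with N2 AL replicate 3. The lid subunit gene rpn-6.2 (WBGene00010309, chromosome III, 8999817 to 9001999, minus strand) had the smallest p of the list, with an interaction of -0.98 ± 0.24 (edgeR adjusted p = 0.154), and the mutant held 5.15, 5.03 and 4.80 CPM of it on DR and 7.27, 8.27 and 6.48 CPM on AL.

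**Figure D4:**
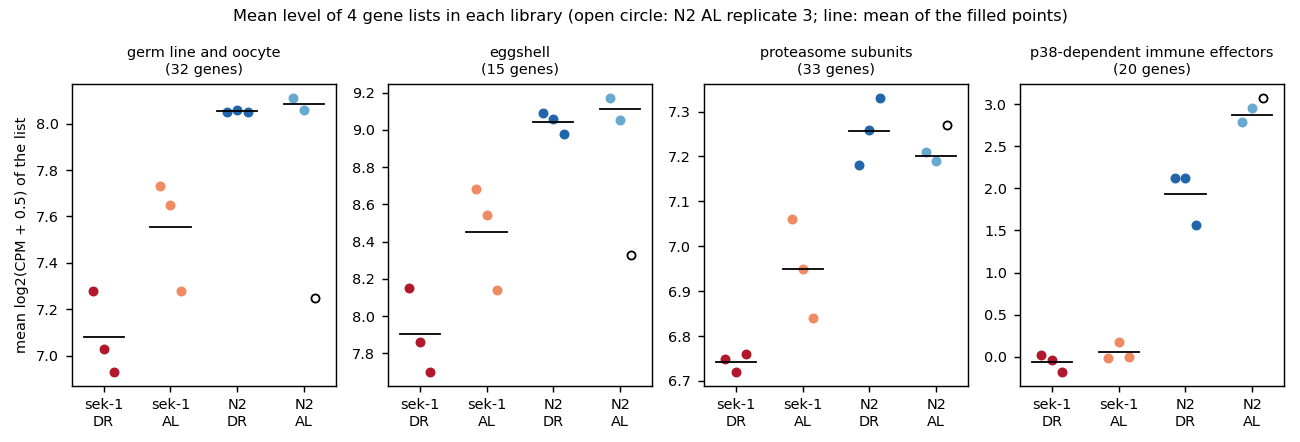
Mean level of 4 gene lists, as the mean of log2(CPM + 0.5) over the genes of the list, in each library, with open circles for N2 AL replicate 3. In the germ line and eggshell lists that library lies near the mutant; without it the N2 diets lie close together while the mutant's DR libraries tend to lie lower than its AL libraries.

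Among immune effectors that depend on p38, 1 of 20 interactions passed, that of K08D8.4. The list has 25 genes, of which 20 were tested. In N2, 8 fell on DR (K08D8.4, irg-4, sysm-1, cld-9, C17H12.6, dod-22, C17H12.8 and lys-2) and 1, clec-60, rose, beside 1.51% and 1.23% of all genes. In sek-1(km4) 1 rose (K08D8.4) and 2 fell (cld-9 and lys-2), beside 4.90% and 10.2% of all genes. With all 12 libraries 6 fell and 1 rose in N2, beside 0.725% and 0.363% of all genes, and 0 rose or fell in sek-1(km4). Members in these brackets are named because they passed, after their values were seen. The median change on DR was -0.38 in the mutant and -1.0 in N2, and the median interaction was 0.67, or 0.73 with all libraries. Only 11 of the 20 interactions were above 0, and 14 with all libraries, so the list was mixed. On AL the median log2 difference of the mutant from N2 was -4.67. Members that low in the mutant have little room to show a further fall. At an unadjusted p under 0.05, 6 interactions were positive and 1 was negative (4.24% and 11.9% of all genes), and voom called 5 positive (3.63%) and 0 negative. With all libraries these were 7 positive and 1 negative (5.78% and 3.13%), and voom called 5 positive (3.28%).

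The list's summed level was 71.4, 51.6 and 23.8 CPM in sek-1(km4) DR, 37.4, 31.7 and 32.2 CPM in sek-1(km4) AL, 239, 235 and 134 CPM in N2 DR, and 389.5, 406 and 461 CPM in N2 AL. On this sum N2 libraries were all above mutant libraries, and within N2 each DR library was below each AL library. The sum in the mutant is carried in good part by clec-60, which was higher in the mutant than in N2 on both diets, with 60.0 of the 71.4 CPM of sek-1(km4) DR replicate 1. The gene sysm-1 (WBGene00011979, chromosome II, 9082626 to 9083193, minus strand), a standard reporter of p38 output, had 0.705, 0.268 and 0.598 CPM in N2 DR and 12.1, 13.3 and 30.1 CPM in N2 AL, a change of -4.59 ± 0.37. In the mutant it had 0, 2 and 2 counts on DR and 7, 2 and 1 counts on AL, too few for a fold change, and its interaction did not pass (edgeR adjusted p = 0.227). The secreted effector gene irg-4 (WBGene00008584, chromosome IV, 12435833 to 12438236, plus strand) had 0.144, 0.215 and 0.324 CPM in sek-1(km4) DR, 0.106, 0.192 and 0.129 CPM in sek-1(km4) AL, 0.0881, 0.115 and 0.159 CPM in N2 DR, and 0.800, 0.743 and 1.49 CPM in N2 AL. Its change passed in N2 only, and its interaction did not pass (3.17 ± 0.74, edgeR adjusted p = 0.14; voom adjusted p = 0.00384), on 2 to 6 counts in every library but those of N2 AL.

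For the kinases and regulators of the p38 pathway itself no difference in response was detected. Of 9 tested genes 0 had an interaction with an unadjusted p under 0.05 in either set of libraries, 0 passed in voom, and the median was 0.09 without N2 AL replicate 3 and -0.16 with it. The adaptor gene tir-1 (WBGene00006575, chromosome III, 3869590 to 3901642, minus strand) rose on DR in both genotypes, by 0.77 ± 0.12 in sek-1(km4) and 1.04 ± 0.14 in N2. It had 264, 266 and 242 CPM in sek-1(km4) DR, 135, 137 and 169 CPM in sek-1(km4) AL, 119, 103 and 88.9 CPM in N2 DR, and 54.3, 47.2 and 24.6 CPM in N2 AL, and its interaction was -0.28 ± 0.18 (edgeR adjusted p = 0.47).

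Of 19 glycolysis genes, 10 fell and 1 rose on DR in sek-1(km4), beside 10.2% and 4.90% of all genes, and 0 did either in N2. With all 12 libraries 0 rose or fell in either genotype. The median interaction was -0.32, and -0.29 with all libraries, and none passed in edgeR. At an unadjusted edgeR p under 0.05, 3 were positive and 5 negative, beside 4.24% and 11.9% of all genes, so the list was mixed. Voom called 0 positive and 10 negative (13.9% of all genes). With all libraries 0 were positive and 2 negative at that unadjusted p (5.78% and 3.13%), and voom called 8 negative (6.13%). The gene pgk-1 (WBGene00020185, chromosome I, 3867541 to 3869109, plus strand), for phosphoglycerate kinase, had 65.4, 54.1 and 53.5 CPM in sek-1(km4) DR, 102, 91.1 and 77.0 CPM in sek-1(km4) AL, 122, 115 and 117 CPM in N2 DR, and 139, 114.5 and 120.5 CPM in N2 AL. Its interaction was -0.60 ± 0.19 (edgeR adjusted p = 0.205). The acyl-CoA dehydrogenase gene acdh-1 (WBGene00016943, chromosome I, 6497436 to 6499560, plus strand), which responds to the vitamin content of bacterial food, had 15.3, 11.9 and 3.51 CPM in sek-1(km4) DR, 56.9, 66.6 and 45.3 CPM in sek-1(km4) AL, 79.5, 81.5 and 52.8 CPM in N2 DR, and 109, 121 and 90.7 CPM in N2 AL. Its change on DR was -2.47 ± 0.45 in the mutant, which passed, and -0.67 ± 0.46 in N2, which did not, but the difference between them was -1.80 ± 0.65 and did not pass (edgeR adjusted p = 0.25).

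**Figure D5:**
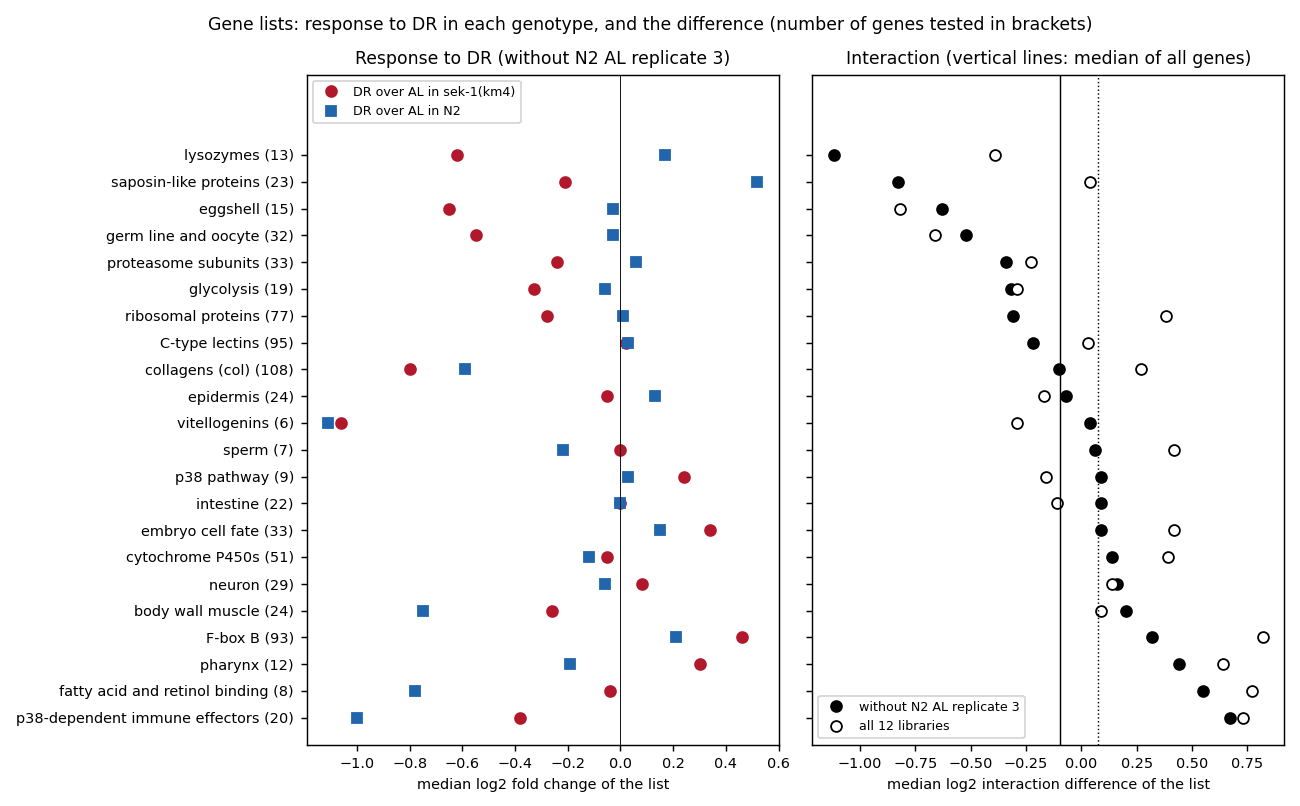
Median log2 change on DR in sek-1(km4) (circles) and in N2 (squares) for 22 gene lists without N2 AL replicate 3 (left), and median interaction with that library (open) and without it (filled; right), with the median over all genes as vertical lines and the number of tested genes in brackets. Germ line, eggshell, proteasome and glycolysis lists lie left of both lines with and without that library, while lysozymes, saposin-like proteins and ribosomal proteins move with it.

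Several lists changed sign with that one library, as did the median over all genes (-0.095 without it and 0.077 with it). The median interaction of 77 ribosomal protein genes was -0.31 without N2 AL replicate 3 and 0.38 with it, that of the collagens was -0.10 and 0.27, that of saposin-like proteins -0.83 and 0.04, and that of the 6 vitellogenins, the yolk proteins, 0.04 and -0.29. Vitellogenins had median changes on DR of -1.06 in sek-1(km4) and -1.11 in N2 without it. Markers of other tissues in this whole-animal RNA had median interactions, without and with that library, of 0.20 and 0.09 for body wall muscle, 0.44 and 0.64 for pharynx, 0.09 and -0.11 for intestine, -0.07 and -0.17 for epidermis, 0.16 and 0.14 for neurons, 0.06 and 0.42 for sperm and 0.09 and 0.42 for embryo cell fate. No interaction of these marker genes passed in edgeR. Their part in the results above was not tested.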

How the data were processed

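RNA-seq of whole worms gave 1 table of whole-number counts per gene and library, deposited by the authors without normalization. The counts were made with featureCounts of Subread, per the submitters' processing notes; no source used here gives the aligner, genome build, annotation or strand setting. Symbols and locations are from Ensembl 115 (WBcel235), matched by gene ID. The test was edgeR's (version 4.0.16, under R 4.3.3; TMM, filterByExpr with a minimum count of 10, robust quasi-likelihood fit, group means), with Benjamini-Hochberg adjustment over all tested genes, on all 12 libraries and without N2 AL replicate 3. SE is the log2 change divided by the square root of F. CPM are TMM-scaled. Alternatives were DESeq2 1.42.0, limma 3.58.1 voom with sample quality weights, other filters, scalings, a replicate block and leaving out each library. Lists were described by counts and medians, with no test. The interaction fits of edgeR, DESeq2 and voom were also run on simulated counts with a known interaction. Those counts were drawn independently for each library, without deviations shared by replicate number, and no result given here rests on them.

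Named genes are the 12 largest called each way and 6 per class above 5 CPM, up to 4 called members of a list or else its 2 of smallest p, and a fixed set; exceptions are stated. The members and lists were chosen with earlier results of these data known. The labels call replicates biological but name no separate cultures, so p-values measure the spread between these libraries. The main test does not pair libraries by replicate number, although libraries numbered 1 or 3 shared deviations between groups, as given below. A count of 0 allows up to 3 counts, which is 0.104 to 0.279 CPM by library and covers counting error only.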

Additional observations from a re-analysis of the deposited data

Results flagged for a closer look

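In 13 genes the response to DR differed between sek-1(km4) and N2 by the interaction test itself (edgeR, without N2 AL replicate 3). The log2 interaction was positive in K08D8.4 (3.59), cyp-14A3 (3.28), K11H12.4 (3.19), C29F3.7 (2.28), H39E23.3 (2.26), cyp-36A1 (1.91), hrg-1 (1.63), faah-2 (1.14) and F18C5.10 (0.84). It was negative in clec-61 (-3.84), lst-5 (-2.88), cyp-35B1 (-2.47) and clec-52 (-2.22). None passed in edgeR with all 12 libraries, where 1302 genes had an unadjusted p under 0.05, DESeq2 called 50 and limma voom 1374. Starting from the 11 libraries, 0 of the 13 remained called in edgeR without sek-1(km4) AL replicate 1, sek-1(km4) AL replicate 2 or sek-1(km4) DR replicate 2.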

How the results depend on the processing

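Depth and the spread of N2 AL limit these results. Of 102 values of the 13 called genes under the other settings on 11 libraries, 92 remained called. An adjusted p that DESeq2 did not give is left out, and fits leaving out a library are given above. At a minimum count of 30 only 4 of 12 genes remained called. All 102 values kept their sign, which choosing the genes in the same libraries favours. With all 12 libraries the count of called genes was 0, and it was 6 with no filter on low counts, 50 with DESeq2, 1374 with voom, 1 with a replicate block and 0 to 13 when leaving out 1 library, the 13 being without N2 AL replicate 3. On 11 libraries it was 13, and 360 with no filter (138 positive, 222 negative), 4 with a minimum count of 30, 184 with DESeq2 (81 and 103), 2607 with voom, 551 with a replicate block (129 and 422), 48 with exon length offsets (28 and 20) and 0 to 44 when leaving out 1 library. Genes responding in sek-1(km4) alone numbered 219, 1, 110, 2198, 414 and 20 under these settings in turn (main 4; leaving out 1 library 0 to 22). Those responding in N2 alone numbered 94, 1, 56, 194, 89 and 20 (main 7; 0 to 13). Opposite responses numbered 13 with no filter, 7 with DESeq2, 39 with voom, 12 with the block, 4 with length offsets and 1 when a diet response needed a log2 change of 1 (main 2; 0 to 6). Same-direction genes numbered 9, 4, 54, 23 and 4 in those first 5 (main 0; 0 to 3). Genes responding in neither numbered 25 with no filter, 7 with DESeq2, 122 with voom, 13 with the block and 2 under the log2 limit (main 0).

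The proteasome median of -0.23 was -0.38 with no filter, -0.35 without ribosomal RNA genes and -0.39 with length offsets, and -0.43 to -0.23 when leaving out 1 library. The p38 effector median of 0.73 was 0.52 at a minimum count of 30, 0.39 with voom, and 0.35 to 1.20 when leaving out 1 library. Germ line and eggshell medians stayed between -0.88 and -0.52 and between -1.10 and -0.63. The orthogonal slope of the mutant's diet response on that of N2 was 0.16 with all libraries and 0.29 above 5 CPM, and 0.68 and 1.26 without N2 AL replicate 3. The interaction of sek-1 changed sign with voom (0.10) and without N2 AL replicate 3 (0.02) from 12 libraries (-0.75 to 0.02 when leaving out 1 library), and with a replicate block (-0.02), length offsets (-0.02) and without N2 AL replicate 1 (-0.06) from 11 (-0.06 to 0.17). With all 12 libraries, same-numbered libraries of different groups correlated in their deviations from the group means at -0.071 to 0.388. Pairs over 0.1 were 6 of 6 for number 1, 6 of 6 for number 3 and 1 of 6 for number 2. Without N2 AL replicate 3 the range was -0.067 to 0.321, and these pairs were 4 of 6, 3 of 3 and 1 of 6 in turn. Of 12 libraries 8 correlated best with their own number. As a hint from the data, numbers 1 and 3 mark a shared deviation. The main test was set without a block because no label gives a shared batch. The low correlations of number 2 cannot decide whether libraries were paired. In every group number 2 lay between numbers 1 and 3 in vitellogenin sum and mitochondrial share, where a shared deviation would leave little to correlate. In all 4 groups number 1 had the highest vitellogenin sum and the lowest mitochondrial share and number 3 the reverse, and the mutant's germ line sum was lower on DR than on AL within each number. Except where named above, the cause of these shifts was not tested.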

Other observations

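No interaction of the families below passed in edgeR. Fatty acid and retinol binding proteins, secreted or cytosolic carriers of lipids, had a median interaction of 0.55 over 8 genes (0.77 with all libraries), and 1 fell and 2 rose on DR in sek-1(km4), beside 10.2% and 4.90% of all genes. In N2 4 fell and 1 rose, beside 1.51% and 1.23%. With all libraries 1 fell and 2 rose in sek-1(km4), beside 0.281% and 0.171%, and 2 fell and 0 rose in N2, beside 0.725% and 0.363%. The gene far-4 had 3.03, 5.17 and 7.12 CPM in sek-1(km4) DR, 0.635, 0.962 and 1.59 CPM in sek-1(km4) AL, 0.220, 0.344 and 0.239 CPM in N2 DR, and 0.592, 0.457 and 0.557 CPM in N2 AL. It rose in the mutant by 2.22 ± 0.33, and its interaction of 3.18 ± 0.65 did not pass (edgeR adjusted p = 0.0995). Its neighbour far-3 fell on DR in both genotypes, with log2 changes of -2.90 in sek-1(km4) and -1.46 in N2, and its interaction of -1.43 ± 0.31 did not pass (edgeR adjusted p = 0.129); it overlaps far-5 on the other strand. Of 93 F-box B genes, whose products are thought to recruit proteins for ubiquitination, 13 had a positive and 2 a negative interaction at an unadjusted p under 0.05, beside 4.24% and 11.9% of all genes, and voom called 13 positive and 0 negative, beside 3.63% and 13.9%. With all libraries 16 were positive and 0 negative, beside 5.78% and 3.13%, and voom called 11 positive, beside 3.28%. In that family fbxb-92 had 2.31, 3.34 and 3.94 CPM in sek-1(km4) DR, 0.705, 1.19 and 1.80 CPM in sek-1(km4) AL, 0.397, 0.191 and 0.239 CPM in N2 DR, and 0.487, 0.686 and 1.11 CPM in N2 AL.

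Lysozymes and saposin-like proteins, which attack bacterial walls and membranes, had negative medians that depended on N2 AL replicate 3, of -1.12 and -0.83 without it and -0.39 and 0.04 with it. The saposin-like gene spp-5 had 263, 167 and 146 CPM in sek-1(km4) DR, 288, 231 and 328 CPM in sek-1(km4) AL, 246, 300.3 and 299 CPM in N2 DR, and 193, 186 and 655 CPM in N2 AL, the last being that library. The lysozyme gene ilys-3 rose on DR in both genotypes without it, by 1.47 ± 0.37 in sek-1(km4) and 3.67 ± 0.58 in N2, and that library held 6.50 CPM against 0.974 and 0.629 CPM in the other N2 AL libraries.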
